A study of Mus musculus with 6 samples.

Results

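The 10 genes described here encode small leucine-rich proteoglycans: Dcn, Bgn, Aspn, Lum, Fmod, Prelp, Kera, Omd, Ogn and Podn. They were chosen by symbol from a table of 18482 genes, all 10 were found in it, and all 10 had enough reads to be tested among 14856 genes. The choice itself used no measured value, but it was made with earlier results of these libraries known, so the fold changes and p-values below describe the genes and were not used to support one another. The tissue was mouse ear skin at postnatal day 21, profiled from polyadenylated RNA of 3 control and 3 lecko samples. In lecko mice Kdr, which encodes the VEGF receptor VEGFR2, was deleted in lymphatic endothelium, controls were littermates, and both groups had received tamoxifen. None of the sources used here gives the strain, the Cre driver, the sex of the mice or which of the series' tamoxifen schedules was used. Nor do they name the animal or litter behind each library, so the p-values cover only the spread among these libraries, which may be technical. The comparison asks what loss of VEGFR2 from lymphatic endothelium does to the RNA of the surrounding skin.

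Small leucine-rich proteoglycans are secreted proteins built of leucine-rich repeats, most of which carry chondroitin sulphate, dermatan sulphate or keratan sulphate chains. They bind collagen fibrils and govern fibril diameter and spacing, and dermal fibroblasts are a main source of them in skin. Several also bind growth factors, TGF-beta among them, and decorin, the product of Dcn, is known as a ligand of receptor tyrosine kinases that include VEGFR2. By sequence the family is divided into classes: Dcn, Bgn and Aspn belong to class I, Lum, Fmod, Prelp, Kera and Omd to class II, Ogn to class III and Podn to class V.

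Total estimated counts lay between 17242921 and 17825135 per library. Kdr gave 32.6, 31.3 and 38.5 CPM (counts scaled to a common library size) in controls 1 to 3 and 9.76, 11.2 and 10.2 in lecko libraries 1 to 3, and it fell by 1.72 on the log2 scale (SE 0.10, edgeR quasi-likelihood test, Benjamini-Hochberg adjusted p = 0.00026). Controls 2 and 3 held 4272 and 4564 reads of 4 Y-linked genes, whereas control 1 held 18 and the lecko libraries 4 to 21, so the groups differ in sex as well as in genotype and control 1 is the control that matches the lecko libraries. Markers of skin were present in all libraries: 5 keratinocyte genes, Krt5 among them, summed to between 21892 and 25246.2 CPM and 14 dermal fibroblast genes to between 20834.2 and 33701.1 CPM. The ear also holds cartilage, and 13 cartilage markers summed to between 1080.4 and 1637.8 CPM.

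Most of the genes lie in clusters (positions on GRCm38.p6). Dcn (97479500 to 97518163), Lum (97565501 to 97572703) and Kera (97606962 to 97613688) followed each other on the plus strand of chromosome 10, with gaps of 47.3 and 34.3 kb. Aspn (49544443 to 49567565), Omd (49582462 to 49592612) and Ogn (49608015 to 49624501) followed each other on the plus strand of chromosome 13, with gaps of 14.9 and 15.4 kb. Prelp (133910304 to 133930102, minus strand) and Fmod (134037254 to 134048280, plus strand) lay 107.2 kb apart on chromosome 1. Bgn (73483601 to 73495936) lay on the X chromosome and Podn (108014793 to 108031954, minus strand) on chromosome 4, each away from other members. Cenpp, which encodes a centromere protein, overlapped Aspn, Omd and Ogn on the opposite strand and held 41 to 58 reads per library, sharing 7 exonic bases with Aspn and 0 with Omd or Ogn. Prelp shared 350 exonic bases with an antisense transcript, and since no source gives the strand setting of the counting, reads there cannot be assigned to a strand.

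The 250 bases before the start of Aspn, Omd and Ogn are shown because Omd and Ogn had the highest fold changes of the 10. Those before the start of Bgn are shown because it is the X-linked member. The windows are chr13:49544193-49544442 for Aspn, chr13:49582212-49582461 for Omd, chr13:49607765-49608014 for Ogn and chrX:73483351-73483600 for Bgn, all on the plus strand of GRCm38.p6. RefSeq windows were found for 8 of the 10 members. Capitals mark matches on either strand to the TATA box TATAAA, the box CCAAT, the GC box GGGCGG or the AP-1 motif TGANTCA.
Aspn: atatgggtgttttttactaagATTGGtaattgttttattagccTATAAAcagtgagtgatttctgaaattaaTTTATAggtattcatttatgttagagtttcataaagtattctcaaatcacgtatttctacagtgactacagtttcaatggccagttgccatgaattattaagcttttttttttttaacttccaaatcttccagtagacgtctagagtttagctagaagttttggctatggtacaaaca
Omd: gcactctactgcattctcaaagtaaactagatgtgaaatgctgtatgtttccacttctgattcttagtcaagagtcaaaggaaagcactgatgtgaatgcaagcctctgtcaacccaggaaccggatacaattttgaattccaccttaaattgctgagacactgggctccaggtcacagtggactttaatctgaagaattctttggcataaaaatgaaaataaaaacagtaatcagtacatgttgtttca
Ogn: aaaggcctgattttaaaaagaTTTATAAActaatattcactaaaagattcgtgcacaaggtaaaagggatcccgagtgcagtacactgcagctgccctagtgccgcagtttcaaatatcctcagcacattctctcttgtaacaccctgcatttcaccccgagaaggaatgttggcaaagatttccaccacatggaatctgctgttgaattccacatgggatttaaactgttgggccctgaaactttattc
Bgn: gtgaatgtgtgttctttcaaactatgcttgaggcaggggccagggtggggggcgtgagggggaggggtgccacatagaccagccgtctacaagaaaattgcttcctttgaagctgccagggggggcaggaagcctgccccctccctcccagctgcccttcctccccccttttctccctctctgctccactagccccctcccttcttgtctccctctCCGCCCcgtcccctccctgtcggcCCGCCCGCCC
The windows differed in base composition. GC content was 30% for Aspn, 38.4% for Omd and 42% for Ogn, against a median of 52.4% over 32851 windows of the same length, and 64.4% for Bgn. Aspn and Ogn each held 2 matches to TATAAA, at 207 and 178 bases before the start in Aspn and 229 and 227 in Ogn. Those of Ogn overlapped each other, and 12.4% of all windows held this motif. Bgn held 3 matches to GGGCGG, of which the last 2 overlapped, and 32.7% of all windows held it. Aspn also held 1 match to CCAAT, found in 33.8% of all windows. TGANTCA, found in 6.75% of all windows, had no match in these 4 windows, and the Omd window held none of the 4 motifs.

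Per length, Dcn was the highest member and Kera the lowest. Per kb of the longest annotated transcript, Dcn stood at 983.1 ± 166.7 CPM in controls and 1160.8 ± 37.7 CPM across lecko libraries (SD, n = 3 each), rank 30 among 14503 genes, and Bgn at 736.0 ± 152.4 and 838.4 ± 110.4, rank 61. Biglycan, the product of Bgn, resembles decorin and carries more chains. Next came Lum at 223.9 ± 46.1 CPM per kb in controls, Aspn at 177.9 ± 31.6, Fmod at 123.1 ± 16.9, Ogn at 78.9 ± 22.2 and Prelp at 61.0 ± 10.9. Omd (19.3 ± 3.18), Podn (17.4 ± 1.47) and Kera (7.51 ± 1.13) were the lowest. Ranges over the 6 libraries overlapped between Dcn and Bgn, Lum and Aspn, Fmod and Ogn, Ogn and Prelp, and Omd and Podn, while Bgn and Lum, Aspn and Fmod, Prelp and Omd, and Podn and Kera did not overlap. Although the ranges of Dcn and Bgn overlapped, Bgn was below Dcn in every library, at 0.62 to 0.80 of its level per kb. The order was unchanged when all annotated exons of a gene were used as its length.

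**Figure D1:**
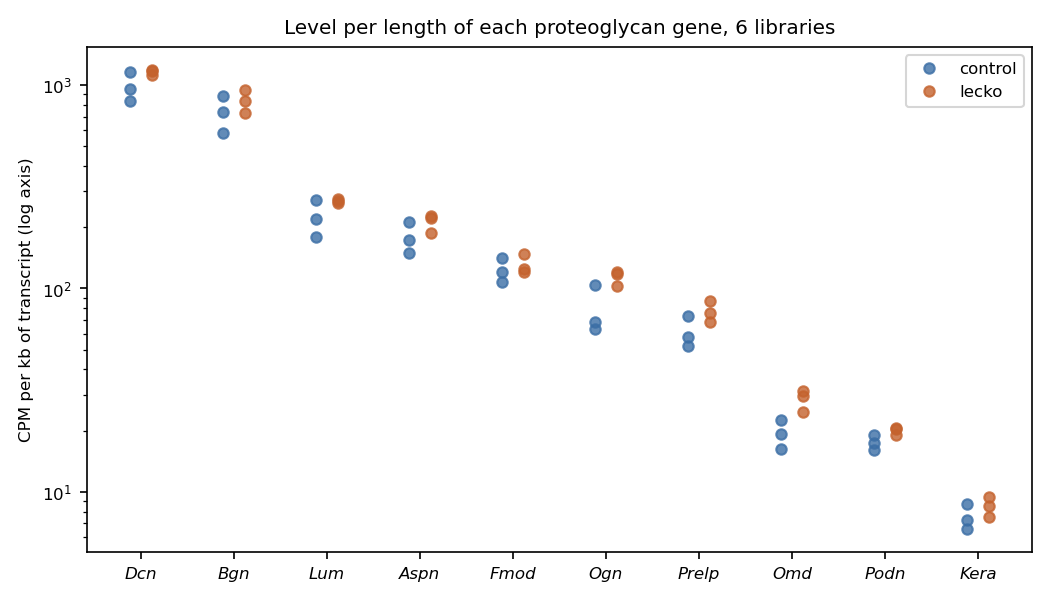
Level of each gene per kb of its longest transcript (CPM per kb, log axis), with 3 control and 3 lecko libraries as points. Dcn and Bgn sit above 583.9 in all libraries and Kera at or below 9.48.

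All 10 genes had a higher mean in lecko than in control skin, and 0 of them passed the test over all genes. Of all genes tested, 51.9% had a positive log2 fold change. The median log2 fold change of the 10 was 0.25, between 0.09 for Fmod and 0.57 for Omd, beside 0.01 over all genes. By edgeR 3 genes passed in either direction (0.0202%), 2 of them higher (0.0135%). Unadjusted p was under 0.05 for 4 of the 10 (Omd, Podn, Ogn and Prelp), all higher, and for 4.89% of all genes in that direction. In bulk tissue a different number of cells of a type and a different amount of RNA per cell cannot be told apart.

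None of the class I genes passed the test, and control 2 overlapped the lecko libraries for each. Dcn, whose product binds collagen I and limits the lateral growth of fibrils, gave 1679.9, 2042.4 and 1462.4 CPM in controls 1 to 3 and 2086.2, 2071.3 and 1964.7 in lecko libraries 1 to 3. Control 2 lay within the lecko values and controls 1 and 3 below them. The means were 1728.2 ± 293.0 and 2040.7 ± 66.3 CPM, a log2 fold change of 0.24 (SE 0.11, 95% interval -0.02 to 0.50, edgeR adjusted p = 0.606, the test that also gave the p-values that follow). Bgn was at 1778.6, 2150.0 and 1412.5 CPM in controls and 2297.2, 1763.0 and 2024.3 in lecko skin, with lecko 2 below controls 1 and 2, and its log2 fold change was 0.19 (SE 0.16, adjusted p = 0.779). Bgn is X-linked, and its fold change with sex as a covariate was also 0.19. That fit leaves control 1 alone to set the level of the lecko group's sex, so it cannot show whether sex takes part. Aspn encodes asporin, an aspartate-rich relative that binds TGF-beta. It gave 403.0, 492.9 and 346.8 CPM in controls and 527.8, 438.4 and 520.0 in lecko skin, so that control 2 lay above lecko 2 (log2 0.26, SE 0.13, adjusted p = 0.624).

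Class II held both the member with the highest fold change and the member with the lowest. Omd encodes osteomodulin, a keratan sulphate proteoglycan known from bone. It was at 43.07, 50.65 and 36.37 CPM in controls 1 to 3 (747, 881 and 637 reads) and 70.82, 55.74 and 66.57 in lecko libraries 1 to 3 (1255, 986 and 1173 reads). Each lecko library was above each control. The means were 43.36 ± 7.15 and 64.38 ± 7.77 CPM (SD, n = 3 each). Its log2 fold change was 0.57 (SE 0.13, 95% interval 0.26 to 0.88), with an unadjusted p of 0.00336 and an adjusted p of 0.419 by edgeR. DESeq2 called it (adjusted p = 0.028), as it did 0.162% of all genes in this direction.

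Prelp, whose product links collagen to the basement membrane proteoglycan perlecan, gave 209.2, 264.4 and 188.2 CPM in controls and 313.0, 248.6 and 273.7 in lecko skin. Control 2 was above lecko 2 (log2 0.34, SE 0.14, adjusted p = 0.575). Lum encodes lumican, which regulates fibril assembly in cornea and skin. Its values were 537.6, 665.7 and 440.8 CPM in controls and 677.0, 655.7 and 641.1 in lecko skin, where the SD was 18.1 against 112.8 CPM in controls (log2 0.26, SE 0.14, adjusted p = 0.624). Control 2 lay within the lecko values and the other controls below them, as for Dcn.

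Fmod and Kera differed least within class II. Fmod, encoding the collagen-binding fibromodulin of tendon and other dense tissue, was at 375.1, 440.7 and 336.4 CPM in controls and 459.2, 377.4 and 390.3 in lecko skin. The groups overlapped (log2 0.09, SE 0.11, adjusted p = 0.841). Kera, encoding keratocan, a keratan sulphate proteoglycan best known from cornea, gave 19.95, 16.50 and 14.90 CPM in controls and 21.61, 19.45 and 17.20 in lecko skin (log2 0.18, SE 0.13, adjusted p = 0.717). It was the sole member whose highest control was control 1.

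Ogn, the class III member, encodes osteoglycin, also named mimecan, which takes part in collagen fibril formation. It was at 176.5, 267.6 and 162.9 CPM in controls 1 to 3 and 303.6, 263.5 and 310.0 in lecko libraries 1 to 3. Control 2 and lecko 2 were nearly equal, and the other controls were far below every lecko library. The means were 202.3 ± 57.0 and 292.4 ± 25.2 CPM (SD, n = 3 each). This is a log2 difference of 0.53 (SE 0.20, 95% interval 0.05 to 1.02, adjusted p = 0.552). Podn, the class V member, encodes podocan, a collagen-binding protein known as an inhibitor of smooth muscle cell growth. Its values were close in all libraries, at 54.95, 60.08 and 50.76 CPM in controls and 65.68, 60.66 and 64.70 in lecko skin, and the groups did not overlap, by a margin of less than 1 CPM (log2 0.20, SE 0.07, adjusted p = 0.526). Podn and Omd were the 2 members of 10 with each lecko library above each control, as were 7.37% of all genes.

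**Figure D2:**
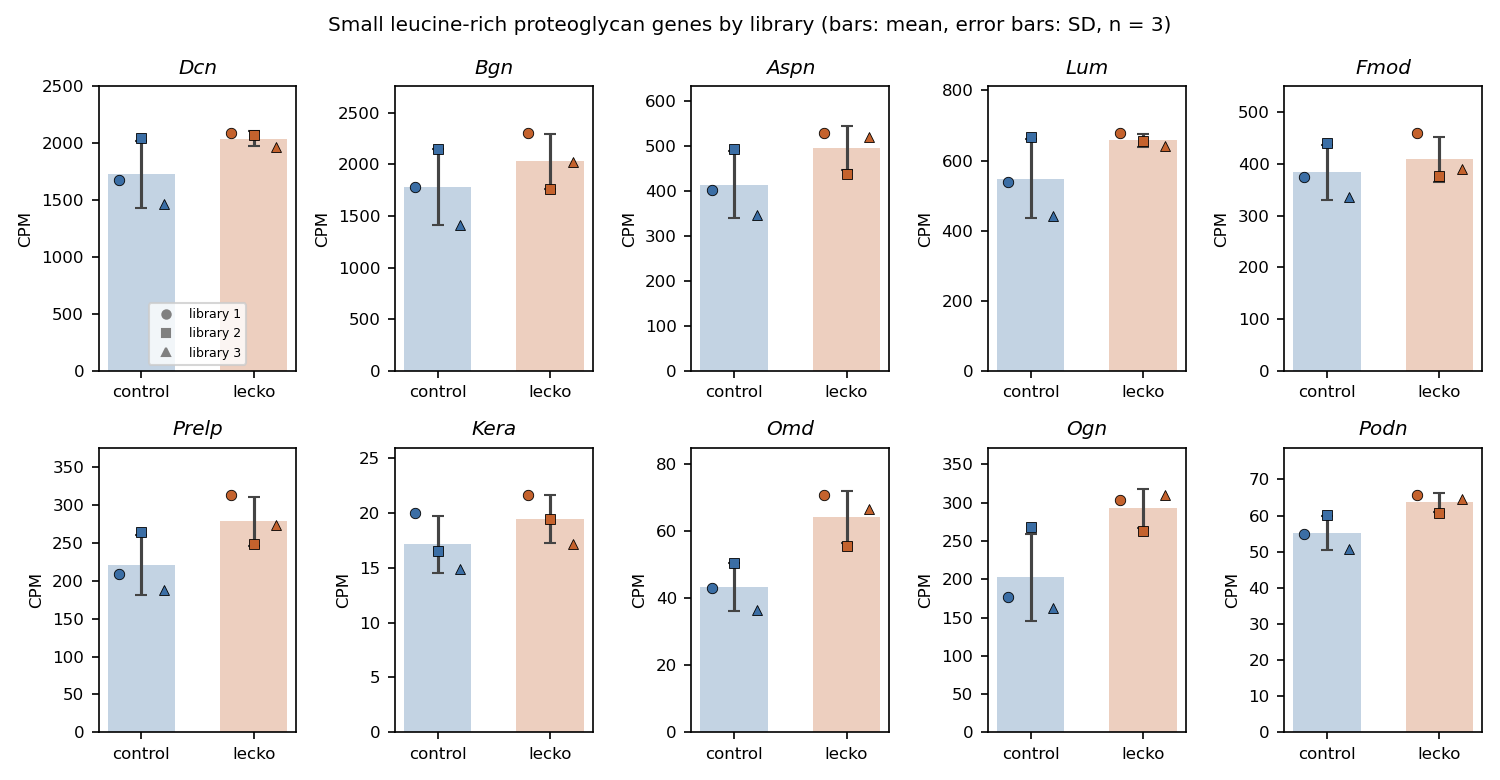
CPM of each gene in 3 control and 3 lecko libraries (points, symbol by library number), with bars for the mean and error bars for the SD. Control 2 stands near the lecko libraries in most panels, and the groups separate for Omd and Podn.

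Control 3 was the lowest of the 6 libraries for all 10 genes, as for 22.1% of all genes. Control 2 was the highest and control 3 the lowest control for 9 of 10, against 21.6% of all genes, and the ratio of control 2 to control 3 ran from 1.11 for Kera to 1.64 for Ogn. Lecko 1 was the highest library for 9 of the 10, Ogn being the exception, and for 16.0% of all genes. The 10 genes together took 0.524, 0.635 and 0.452% of reads in controls 1 to 3 and 0.678, 0.599 and 0.630% in lecko libraries 1 to 3. Each lecko library was above control 1 for 8 of 10 genes (28.1% of all genes), the exceptions being Bgn and Kera.

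**Figure D3:**
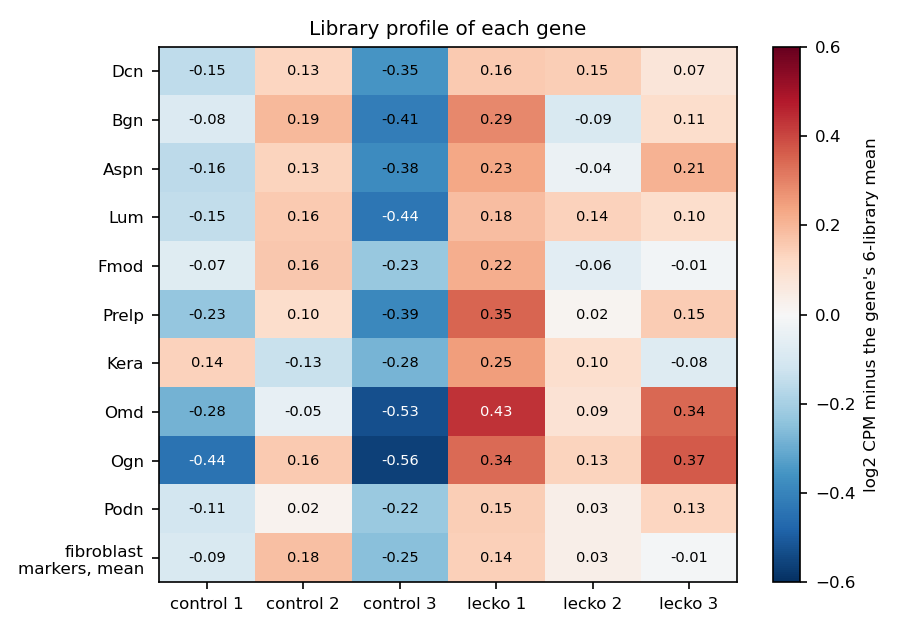
log2 CPM of each gene in each library minus the gene's mean over 6 libraries, with the mean of 14 dermal fibroblast markers in the last row. The control 3 column is negative in every row, from -0.22 for Podn to -0.56 for Ogn among the 10 genes.

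The fold changes moved with the libraries used. Without control 2 the median of the 10 was 0.39, Ogn was called (log2 0.78, adjusted p = 0.015 by edgeR) and 8 of 10 had an unadjusted p under 0.05 (0.240% of all genes were called higher at the adjusted threshold in this fit, and 7.32% were higher with an unadjusted p under 0.05). Without control 3 the median was 0.14, Bgn was at 0.05 and Omd at 0.46. Without lecko 1 the median was 0.21, Bgn was at 0.08, Kera at 0.09 and Fmod at -0.01. With sex as a covariate, which leaves control 1 to set the level of the lecko group's sex, the median was 0.29, Ogn was at 0.73 and Omd at 0.58, and 0 of 10 were called. Kera had a negative sign in that fit (-0.04, adjusted p = 0.981).

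**Figure D4:**
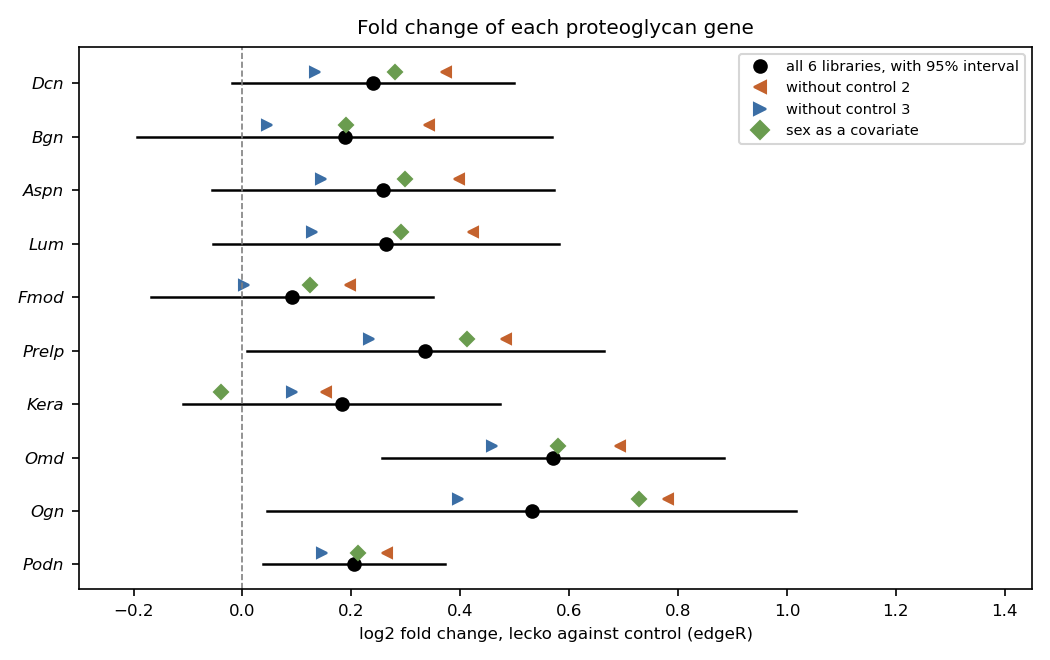
log2 fold change of each gene, lecko against control, with its 95% interval in the fit of all 6 libraries, and the values without control 2, without control 3 and with sex as a covariate. Omd and Ogn lie at or above 0.40 in each of these fits, and Fmod and Bgn are lowest without control 3.

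Proportions between members were compared within each library. Per kb, Lum stood at 0.216 to 0.234 of Dcn over all 6 libraries, with means of 0.227 ± 0.0095 in controls and 0.231 ± 0.0038 in lecko skin (SD, n = 3 each). Dcn made up 40.6 ± 0.81% of the members' summed reads per kb in controls and 40.7 ± 2.5% in lecko skin. For the chromosome 13 neighbours, ratios did not overlap between groups. Omd was at 0.111, 0.106 and 0.109 of Aspn in controls 1 to 3 and at 0.139, 0.132 and 0.133 in lecko libraries 1 to 3. Ogn was at 0.398, 0.493 and 0.426 of Aspn in controls and at 0.522, 0.545 and 0.541 in lecko skin. For both ratios each lecko library was above each control, control 2 included. Fmod to Dcn did overlap, at 0.126, 0.122 and 0.13 in controls and 0.124, 0.103 and 0.112 in lecko skin. Bgn to Dcn overlapped too. The chromosome 13 ratios were chosen after their values were seen and were not tested. How many ratios of other gene pairs separate the groups was not counted.

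Fibroblast markers differed between libraries too. The list had a median log2 fold change of 0.03, with 10 of 14 positive and 0 called. At an unadjusted p under 0.05, 4 were higher, beside 4.89% of all genes. Sfrp2, a secreted Wnt modulator, was at 0.34 (adjusted p = 0.504) and Dpp4, a surface peptidase of fibroblasts, at 0.22 (adjusted p = 0.530). The mean of 14 dermal fibroblast markers, centred on each gene's 6-library mean, was -0.09, 0.18 and -0.25 (log2) in controls 1 to 3 and 0.14, 0.03 and -0.01 in lecko libraries 1 to 3, so it too was lowest in control 3. With libraries scaled to these markers, the median of the 10 was 0.15 and the median of all genes moved to -0.11. Relative to the markers' mean, log2 Omd was -2.10, -2.14 and -2.18 in controls and -1.62, -1.85 and -1.55 in lecko libraries, and log2 Ogn was -0.07, 0.26 and -0.02 in controls and 0.48, 0.38 and 0.67 in lecko libraries. On this scale each lecko library was above each control for Dcn, Lum, Prelp, Omd and Ogn, as for 2.46% of all genes, and Bgn, Aspn, Fmod, Kera and Podn overlapped, with differences between -0.02 (Fmod) and 0.47 (Omd). The part that the amount of fibroblast RNA takes in the higher levels was not tested.

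Of 15 collagens and matrix partners, the proteins that these proteoglycans bind, 0 were called. At an unadjusted p under 0.05, 1 of the 15 was higher, beside 4.89% of all genes. Of the 15, 11 had a positive log2 fold change and the median was 0.13. Col1a1 and Col3a1, the fibrillar collagens that decorin decorates, had log2 fold changes of -0.20 (adjusted p = 0.768) and 0.01 (adjusted p = 0.992). Per kb, the ratio of Dcn to Col1a1 was 0.947, 0.864 and 1.016 in controls 1 to 3 and 1.222, 1.282 and 1.289 in lecko libraries 1 to 3. Dcn to Col3a1 was 0.525, 0.480 and 0.553 in controls and 0.585, 0.613 and 0.613 in lecko skin, so for both ratios the groups did not overlap. Both ratios were chosen after their values were seen and were not tested, and how many ratios of other gene pairs separate the groups was not counted. Col12a1, a collagen on the surface of fibrils that binds decorin, was at 188.5 ± 41.5 CPM in controls and 245.9 ± 4.37 in lecko skin, without overlap (log2 0.38, adjusted p = 0.551), and Fn1, encoding fibronectin, had a log2 fold change of 0.32 (adjusted p = 0.694). Both were named for having the smallest p of the 15, and 7.37% of all genes had each lecko library above each control. Col1a1 and Col3a1 fell outside the rule for named genes and were chosen after their values were seen.

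Of 9 other family genes listed, 7 could be tested, 0 were called, 4 had a positive log2 fold change and the median was 0.22. Unadjusted p was under 0.05 for 1 higher and 1 lower gene, beside 4.89% and 3.68% of all genes. Epyc, the class III gene beyond Kera on chromosome 10, was low throughout, at 0.881 ± 0.261 CPM in controls and 1.85 ± 0.168 in lecko skin, without overlap (log2 1.06, SE 0.27, adjusted p = 0.420). Its product, epiphycan, is known from growth cartilage. Nyx encodes nyctalopin, best known from retina, and like Bgn lies on the X chromosome. It was at 3.29, 4.08 and 3.37 CPM in controls and 2.03, 3.05 and 2.21 in lecko skin, also without overlap (log2 -0.56, SE 0.21, adjusted p = 0.530). Epyc and Nyx were named for their small p. Each lecko library was above each control for 7.37% of all genes, and below each control for 1074 of 14856.

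Of 35 enzymes that build or modify the chains, 33 were tested and 0 were called. Of those tested, 19 had a positive log2 fold change and the median was 0.05. At an unadjusted p under 0.05, 3 were higher, beside 4.89% of all genes. Chst2, a sulphotransferase acting on N-acetylglucosamine, was at 15.5, 16.3 and 13.1 CPM in controls and 20.6, 20.4 and 21.1 in lecko skin (log2 0.46, SE 0.10, adjusted p = 0.375). Dsel, an epimerase that makes dermatan sulphate, had a log2 fold change of 0.24 (adjusted p = 0.511). The groups did not overlap for either enzyme, but both were named for their small p. Of all genes, 7.37% had each lecko library above each control. The 12 genes of collagen crosslinking had a median of 0.06, 0 calls and 0 at an unadjusted p under 0.05, with Loxl2, a lysyl oxidase, at 0.28 (adjusted p = 0.697) and Plod3, a lysyl hydroxylase, at -0.09 (adjusted p = 0.812).

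Proteinases that process collagens or cleave the core proteins went both ways. Of 11 listed, 10 were tested, 0 were called and 5 had a positive log2 fold change, with a median of -0.01. At an unadjusted p under 0.05, 3 were higher and 1 lower, beside 4.89% and 3.68% of all genes. Mmp3, encoding stromelysin, which can degrade decorin, was at 47.2, 52.4 and 43.2 CPM in controls and 37.6, 37.4 and 32.3 in lecko skin (log2 -0.41, SE 0.09, adjusted p = 0.379). Pcolce2, an enhancer of procollagen processing, was at 68.4, 83.4 and 64.7 CPM in controls and 94.1, 85.4 and 88.5 in lecko skin (log2 0.31, SE 0.09, adjusted p = 0.504). Neither gene overlapped between groups, but both were named for their small p. Of all genes, 7.37% had each lecko library above each control, and 1074 of 14856 had each lecko library below.

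Of 22 receptors and growth factors that family members bind, 18 had a positive log2 fold change and the median was 0.14. Of the 22, 0 were called higher and 1 was called lower, which was Kdr. Unadjusted p was under 0.05 for 3 higher genes, beside 4.89% of all genes. Of 21 other proteoglycans and link proteins, 20 were tested, 14 had a positive log2 fold change, the median was 0.09 and 0 were called (unadjusted p was under 0.05 for 3 higher and 1 lower gene). Sdc2, a cell surface syndecan, was at 63.4, 78.4 and 63.8 CPM in controls and 86.4, 83.5 and 83.7 in lecko skin (log2 0.30, adjusted p = 0.467). Hapln3, a link protein, had a log2 fold change of 0.76 (adjusted p = 0.467) at 1.51 CPM in controls.

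**Figure D5:**
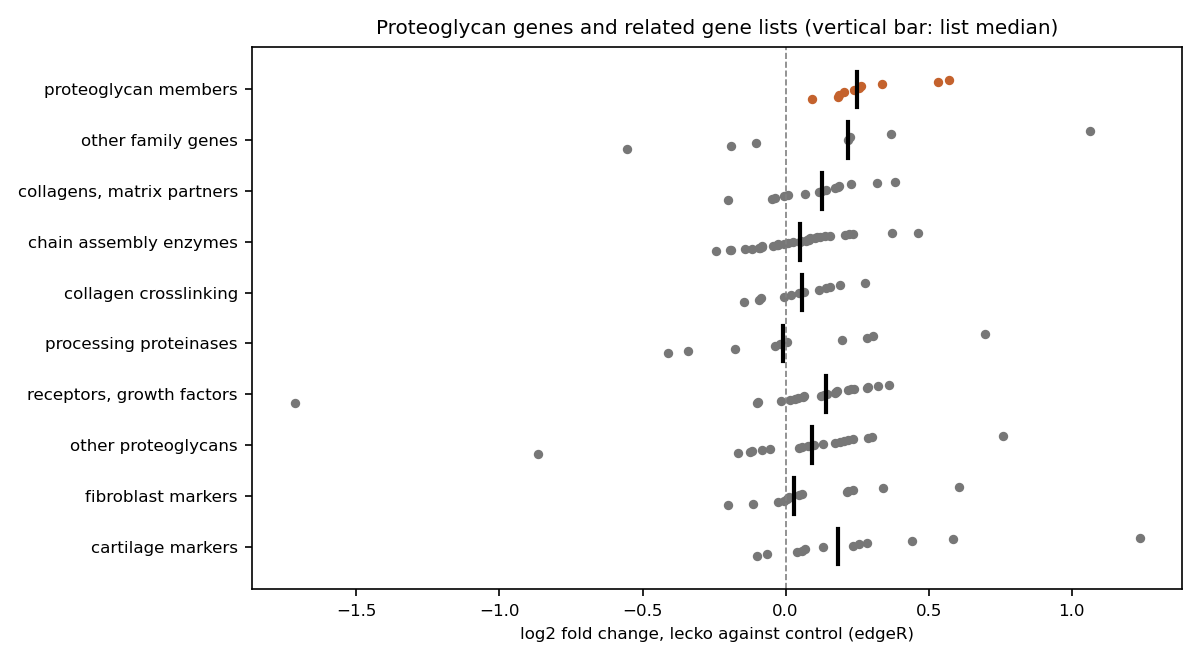
log2 fold change, lecko against control, of each tested gene in 10 lists (points), with the list median as a vertical bar. The proteoglycan members all lie above 0, with a median of 0.25, and Kdr is the point at -1.72 among receptors.

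Among genes of other cell types, cartilage and macrophage markers had positive medians. Cartilage markers had a median log2 fold change of 0.18 over 12 tested, with 10 positive and 0 called. At an unadjusted p under 0.05, 2 were higher (4.89% of all genes were). Summed levels were 1080.4 to 1369.7 CPM in controls and 1130.4 to 1637.8 in lecko skin. Matn3, a cartilage matrilin, had a log2 fold change of 1.24 (adjusted p = 0.385) and Col9a1 0.44 (adjusted p = 0.562). Matn3 was low, at 1.09 CPM in controls and 2.58 in lecko skin. Of the markers with 155.1 CPM or more in controls, Col2a1 was at 0.28, Acan at 0.06, Col9a3 at 0.04 and Col9a2 at -0.06. Of 8 macrophage markers all 8 were positive, with a median of 0.38, and 0 were called. At an unadjusted p under 0.05, 2 were higher, beside the same 4.89% of all genes. The 8 summed to 501.6 to 842.2 CPM in controls and 781.7 to 965.5 in lecko skin, control 3 again being lowest. Mrc1, the mannose receptor, was at 0.55 (adjusted p = 0.583) and Cd68, a lysosomal macrophage protein, at 0.44 (adjusted p = 0.544). Tendon markers had a median of 0.02 over 4 genes, with 0 called and sums of 333.5 to 440.1 and 345.7 to 372.5 CPM. Of the 4, 1 was higher at an unadjusted p under 0.05, beside the same 4.89% of all genes. Mkx, a tendon transcription factor, was at 0.53 (adjusted p = 0.390) and Thbs4, a thrombospondin, at -0.08 (adjusted p = 0.849).

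Skeletal muscle, blood endothelial and pericyte markers had negative medians. All 11 skeletal muscle markers were negative, 0 were called and 7 were lower at an unadjusted p under 0.05 (3.68% of all genes were), with a median of -0.30 and sums of 6354.5 to 7171.0 CPM in controls and 4817.6 to 6098.4 in lecko skin. Ryr1, the calcium release channel of muscle, was at -0.34 and Cacna1s, its voltage sensor, at -0.30 (adjusted p = 0.385 for each). The 7 blood endothelial markers were all negative, 0 were called and 6 were lower at an unadjusted p under 0.05, beside the same 3.68% of all genes, with a median of -0.25 and sums of 358.3 to 391.9 and 302.9 to 322.2 CPM. Cldn5, a tight junction protein, was at -0.46 (adjusted p = 0.379) and Cdh5, the endothelial cadherin, at -0.25 (adjusted p = 0.432). For 10 pericyte and smooth muscle markers the median was -0.12, 7 were negative and 0 called, with sums of 923.9 to 1025.7 and 855.1 to 892.3 CPM. At an unadjusted p under 0.05, 4 were lower, beside the same 3.68% of all genes. Rgs5 and Acta2, a pericyte regulator and smooth muscle actin, were at -0.25 and -0.24 (adjusted p = 0.467 for each). The 3 positive genes were Kcnj8 (0.23), Pdgfrb (0.16) and Cspg4 (0.08). For Pdgfrb each lecko library was above each control, as for 7.37% of all genes. Of 7 lymphatic endothelial markers 2 were positive, Pdpn (0.20) and Prox1 (0.18), and 0 were called. At an unadjusted p under 0.05, 2 were lower, beside the same 3.68% of all genes. The median was -0.11, and sums were 358.9 to 408.8 CPM in controls and 311.2 to 338.2 in lecko skin. Ccl21a, a lymphatic chemokine, was at -0.58 (adjusted p = 0.420) and Reln, encoding reelin, at -0.27 (adjusted p = 0.526). Medians were -0.06 for 5 adipocyte, -0.11 for 5 keratinocyte and -0.07 for 5 Schwann cell markers, with 0 called and 0 at an unadjusted p under 0.05 in each list. No marker was at 0 in all libraries. The part of cartilage, macrophage, muscle or vessel content in the levels of the proteoglycan genes was not tested.

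Nearness to the members' mean profile was the root mean square difference of centred log2 CPM over 6 libraries, among 13235 genes. The 5 nearest genes were Cd74 (0.032), Srpx2 (0.035), Ctsc (0.037), Ank2 (0.039) and Il16 (0.043). Their log2 fold changes lay between 0.25 for Il16 and 0.29 for Cd74, Srpx2 and Ctsc. Values near those of the members follow from this choice by profile and are no separate result. The members themselves differed from their own mean profile by 0.05 (Aspn) to 0.179 (Kera), with Ogn at 0.177 and Omd at 0.147.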

How the data were processed

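Polyadenylated RNA of 6 ear skin samples (3 control, 3 lecko, groups and replicate numbers from the sample titles) was analysed. The deposited table holds estimated counts per gene, a unit read from its header and values, since 9.6 to 10.52% of values per library are not whole. The build GRCm38.p6 and the tools RSEM 1.3.1, HISAT2 2.2.1 and Bowtie2 2.4.5 are named in the submitters' processing notes, with their roles, the annotation and the strand setting not given in the sources used here. RSEM-type counts divide reads among similar genes.

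Counts were rounded, filtered with filterByExpr (minimum count 10, minimum total 15, 3626 genes left out), scaled by TMM and tested with edgeR 4.0.16 in R 4.3.3 (quasi-likelihood with robust estimation, 1 term for group, Benjamini-Hochberg over 14856 genes, threshold 0.05). CPM use TMM-scaled library sizes, and log2 CPM a prior count of 2. Reads of the members ranged from 261 to 40709 per library, so that counting error at a member's lowest library was 0.62 to 6.19%. Chi-square over degrees of freedom was 7.65 to 20.3 for pairs of libraries, above the 1 that sampling noise alone gives, and no library was counted as a repeat of another. Sex was read from 4 Y-linked genes (threshold 10 CPM in sum). Coordinates are RefSeq's, transcript lengths GENCODE M21's (both GRCm38), and promoter windows RefSeq's. The scripts were tested on simulated data.

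The members and lists were chosen with earlier results of these data known. Named genes were the 10 members, Kdr, from each list described the called members (up to 4) or otherwise the 2 tested members with the smallest p, and the 5 genes with the nearest profile with mean log2 CPM of 1 or more. Exceptions are named in the text, and the further pericyte, lymphatic and cartilage genes given beside the named ones are also outside this rule. The alternatives tried included DESeq2 1.42.0, limma-voom (limma 3.58.1), other scalings and filters, a fit without robust estimation, a replicate block, sex as a covariate and each library left out. Scaling to fibroblast markers, library size without skeletal muscle markers and a fit without controls 2 and 3 were added after seeing the data.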

Additional observations from a re-analysis of the deposited data

How the results depend on the processing

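Of 190 fold changes of single members under 19 alternatives, 184 kept their sign and their side of the threshold, 4 changed sign and 2 became called. Fmod ranged from -0.01 (without lecko 1) to 0.20 (without control 2) over single libraries left out and was at -0.01 with libraries scaled to fibroblast markers, a scaling that lowers all genes alike (median of all genes -0.11), and Kera at -0.04 with sex as a covariate and -0.05 without the 2 controls with Y-linked counts. The number of members called was 1 with DESeq2 (Omd) and 0 to 1 over single libraries left out (Ogn without control 2). All genes called numbered 3 in the fit of 6 libraries, 32 with DESeq2, 17 with libraries scaled to fibroblast markers, and 3 to 37 over single libraries left out (8 without control 1, 37 without control 2, 6 without lecko 2). The median of the members stayed positive, between 0.14 (without control 3) and 0.39 (without control 2). Same-numbered libraries were not paired by their deviations from the group means (correlations 0.34, -0.07 and 0.04, and only the libraries numbered 1 correlated best with their own number), and the replicate block gave 3 genes called, 0 members called and a member median of 0.26. A fit without the 2 controls with Y-linked counts leaves 1 control, which is assumed to vary like the lecko libraries. With all 6 libraries the 95% interval included 0 for Dcn, Bgn, Aspn, Lum, Fmod and Kera. The sign of these differences is thus not settled by 3 libraries per group. The intervals of Omd, Ogn, Prelp and Podn lay above 0 but are not adjusted for the number of genes tested. None of these members passed the test over all genes in that fit, so their sign is not settled either. Leaving skeletal muscle markers out of library size changes that size too little to test anything. The cause of the other changes was not tested.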
